A study of Mus musculus with 10 samples.

Results

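Fabp7, Fabp5 and Fabp3 are the 3 fatty acid binding protein genes described here, taken as every probe set of the array whose annotated gene symbol is one of these names. They gave 4 probe sets, a single one for Fabp7 (1450779_at) and for Fabp3 (1416023_at) and 2 for Fabp5 (1416021_a_at, called probe set 1 below, and 1416022_at, called probe set 2), and they are 3 of 12393 genes with an annotated symbol of their own. The samples were total brain RNA from C57BL/6 mice, an inbred laboratory strain, at 8 weeks and at 1 week of age, and the labels name no brain region, treatment or altered gene. Each was hybridised to 1 Affymetrix MOE430A array, which reads a transcript with a set of short probes. At 8 weeks there were 2 arrays labelled female and 2 labelled male, and at 1 week 3 labelled female and 3 labelled male. The labels number the brains and do not say that each came from a separate animal, so p-values measure the spread between these arrays.

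Fatty acid binding proteins are small cytosolic proteins that hold a long-chain fatty acid inside a barrel of beta strands and carry it between membranes, enzymes and nuclear receptors. Fabp7, the brain form, also named brain lipid binding protein, marks radial glia, the stem cells and migration scaffold of the developing brain, and later some astrocytes. It binds docosahexaenoic acid, a major fatty acid of neuronal membranes. Fabp5, the epidermal form, is known from skin and in brain from dividing progenitors, young neurons and glia, and Fabp3, the heart form, is known from heart muscle and in brain mainly from neurons.

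The promoters of the members were looked up because all 3 transcripts were lower at 8 weeks. RefSeq's promoter table for GRCm38.p6 held 2 of the members, Fabp7 and Fabp3. The 250 bases before each transcription start are shown 5′ to 3′, with bases inside a searched motif in capitals, for Fabp7 at chr10:57784673-57784922 (plus strand) and for Fabp3 at chr4:130308488-130308737 (plus strand).
Fabp7: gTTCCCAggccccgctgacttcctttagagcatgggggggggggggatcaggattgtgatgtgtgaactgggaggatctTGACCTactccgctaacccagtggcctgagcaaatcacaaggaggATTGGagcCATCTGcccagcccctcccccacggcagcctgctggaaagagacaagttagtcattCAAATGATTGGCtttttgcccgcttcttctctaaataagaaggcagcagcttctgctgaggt
Fabp3: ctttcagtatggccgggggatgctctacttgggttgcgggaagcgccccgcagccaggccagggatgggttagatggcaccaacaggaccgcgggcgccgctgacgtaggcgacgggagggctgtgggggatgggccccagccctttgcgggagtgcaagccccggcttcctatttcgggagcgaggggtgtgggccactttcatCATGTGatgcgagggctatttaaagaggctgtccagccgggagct

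The motifs were the CCAAT box (CCAAT), the nuclear factor I half-site (TTGGC), the RBPJ motif of Notch signalling (TGGGAA), the nuclear receptor half-site (AGGTCA), the E-box (CANNTG), the GC box (GGGCGG), the TATA box core (TATAAA) and the POU octamer (ATGCAAAT), each on both strands. The Fabp7 window held 2 CCAAT boxes, 2 E-boxes and 1 each of the nuclear factor I, RBPJ and nuclear receptor motifs. Its second CCAAT box, read on the minus strand 56 to 52 bases before the start, overlapped the nuclear factor I half-site 55 to 51 bases before it. The Fabp3 window held 1 E-box, 45 to 40 bases before the start. Among all 32851 promoter windows of the same length, 33.8% held a CCAAT box, 41.5% the nuclear factor I half-site, 21.6% the RBPJ motif, 14% the nuclear receptor half-site, 66.2% an E-box, 32.7% a GC box, 12.4% the TATA core and 1.6% the octamer. The GC content was 54.8% for Fabp7 and 64.8% for Fabp3, with a median of 52.4% over all windows. These matches are letters in a window, not binding sites.

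Deposited intensities were not on a common scale, and were quantile-normalized. Trimmed means of the deposited values (2% left out at each end) ran from 256 to 319 at 8 weeks and from 139 to 237 at 1 week. For beta-actin, whose control probe sets report RNA integrity, signal at the 3' end over that at the 5' end ran from 1.05 to 1.14 at 8 weeks and from 0.967 to 1.1 at 1 week. Xist, the RNA of the inactive X chromosome, and the Y-linked gene Eif2s3y opposed the sex label in 4 of the 6 arrays at 1 week and in 0 at 8 weeks, and 1 further array at 1 week carried both. Sex labels are therefore used as labels only, and member values are also given without those arrays.

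The comparison of ages, a factor the labels name, showed all 3 genes lower at 8 weeks than at 1 week, by unequal amounts. Fabp7 fell most, to 12.7% of its 1-week mean, Fabp5 to 43.2% by probe set 1 and 28.9% by probe set 2, and Fabp3 to 54.1%. All 4 probe sets passed at an adjusted p under 0.05 (limma with Benjamini-Hochberg adjustment over 13576 probe sets), in a comparison where 24.0% of probe sets were called lower. Every 8-week array lay below every 1-week array in all 4 probe sets, as it did in 18.3% of probe sets. By gene, 24.0% of 8148 genes were called lower and 21.9% higher. In RNA of bulk tissue, fewer cells of a type and less RNA per cell cannot be told apart.

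Fabp7 read 510.4 and 414.5 in the 8-week arrays labelled female and 447 and 418 in those labelled male, against a lowest value of 3159.7, a median of 3579 and a highest of 3831 at 1 week. Between the lowest 1-week array and the highest 8-week array there was a 6.19-fold gap, and the 4 adult values stood close together. Fabp7 averaged 448 ± 44.4 at 8 weeks and 3514 ± 260.3 at 1 week (SD, n = 4 and 6), a log2 change of -2.91 ± 0.09 (SE, limma adjusted p = 6.78e-08). Ordered from the steepest fall upwards, Fabp7 stood at rank 6 of 8148 genes.

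Fabp5 probe set 1 read 1284 and 1217 in the 8-week arrays labelled female and 1501 and 1143 in those labelled male, against a lowest value of 2764, a median of 2855 and a highest of 3362 at 1 week. Probe set 2 read 538 and 594 in the 8-week arrays labelled female and 703 and 510.9 in those labelled male, against a lowest value of 1771, a median of 2069.9 and a highest of 2236 at 1 week. In both probe sets the highest 8-week array was replicate 1 labelled male and the lowest replicate 2 labelled male, and the ages did not overlap. Probe set 1 averaged 1286 ± 154 at 8 weeks and 2975 ± 251 at 1 week (SD, n = 4 and 6), a log2 change of -1.20 ± 0.09 (SE, limma adjusted p = 5.13e-06). Probe set 2 averaged 586 ± 85.0 at 8 weeks and 2032 ± 192 at 1 week (SD, n = 4 and 6), a log2 change of -1.76 ± 0.11 (SE, limma adjusted p = 1.66e-06). By its brighter probe set, number 1, Fabp5 stood at rank 140 of 8148 genes from the steepest fall upwards. RefSeq names a Fabp5-like pseudogene, Fabp5l2, and a Fabp3 pseudogene, Fabp3-ps1, and whether their transcripts reach these probes was not tested.

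Fabp3 read 437 and 500.3 in the 8-week arrays labelled female and 596 and 546 in those labelled male, against a lowest value of 891, a median of 978 and a highest of 1009.8 at 1 week. The ages did not overlap, and the lowest 1-week array was 1.49 times the highest 8-week array. Fabp3 averaged 519.9 ± 67.8 at 8 weeks and 962 ± 47.7 at 1 week (SD, n = 4 and 6), a log2 change of -0.86 ± 0.08 (SE, limma adjusted p = 1.41e-05), at rank 342 of 8148 genes. On the deposited scale, which shifted the median of all probe sets by 0.47, Fabp3 did not pass (-0.31 ± 0.14, limma adjusted p = 0.0517) and its arrays overlapped, at 585 to 661 at 8 weeks and 574 to 960.0 at 1 week. On that scale Fabp7 (-2.43 ± 0.14), Fabp5 probe set 1 (-0.70 ± 0.14) and probe set 2 (-1.22 ± 0.14) still passed, and relative to the median shift all 4 were lower.

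**Figure D1:**
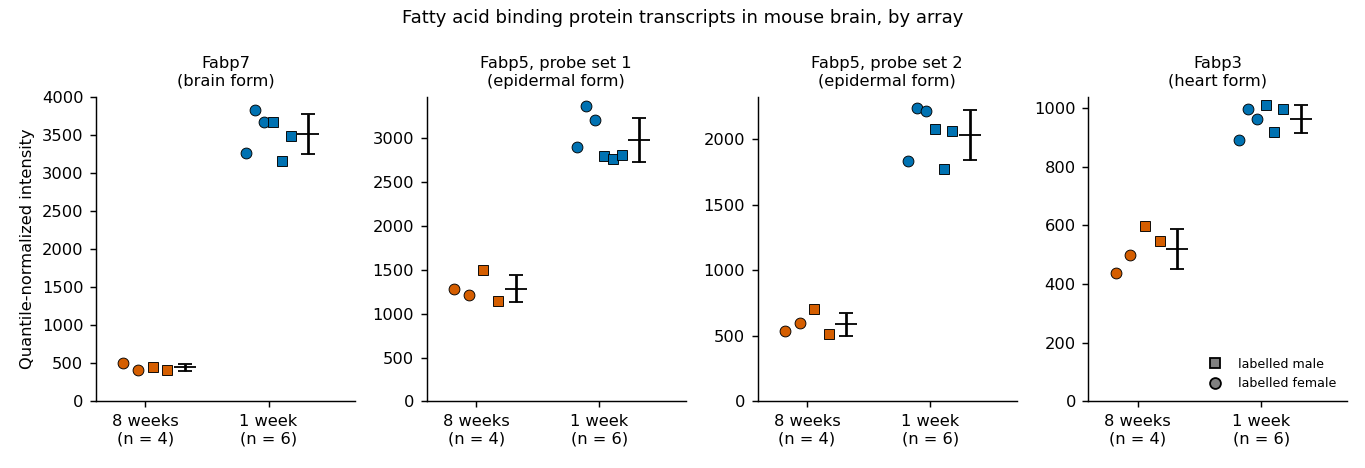
Quantile-normalized intensity of each array (vertical axis, linear from 0) for the 4 member probe sets, with 8-week arrays in orange and 1-week arrays in blue, squares for arrays labelled male and circles for those labelled female, and the mean with SD at the right of each age. In each panel all 8-week points lie below all 1-week points, and the distance is widest for Fabp7, at 448 against 3514.

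**Figure D2:**
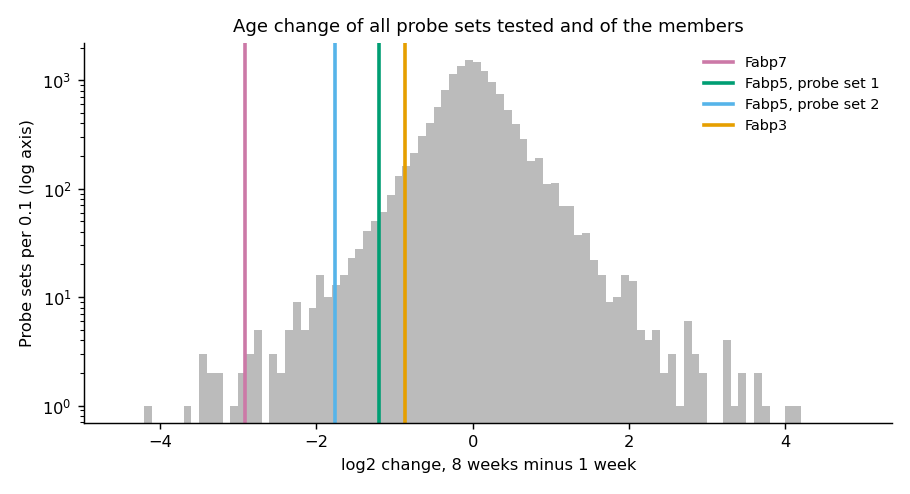
Number of probe sets (vertical axis, log scale) in each interval of 0.1 of the log2 change from 1 to 8 weeks (horizontal axis) for the 13576 probe sets tested, with a vertical line for each member probe set. Fabp7 at -2.91 lies in the far lower tail, and Fabp5 at -1.76 and -1.20 and Fabp3 at -0.86 lie on the lower flank.

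Whether the 3 forms changed unequally was tested on the log2 ratio of their brightest probe sets within each array, in which a factor common to an array largely cancels. Quantile normalization and the pseudocount can still move it. The level of such a ratio has no meaning across probe sets, only its difference between ages. The log2 ratio of Fabp7 to Fabp5 was -1.47 ± 0.17 at 8 weeks and 0.24 ± 0.09 at 1 week (SD, n = 4 and 6), so Fabp7 fell 3.27-fold further than Fabp5 (difference -1.71, two-sided exact permutation p = 0.00476, adjusted p = 0.00714 over 3 pairs). The ratio of Fabp7 to Fabp3 was -0.20 ± 0.28 at 8 weeks and 1.84 ± 0.06 at 1 week (SD, n = 4 and 6), a 4.12-fold further fall (difference -2.04, exact permutation p = 0.00476, adjusted p = 0.00714). In both pairs the ages were fully apart, and 0.00476 is the smallest p that the 210 assignments of arrays can give.

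The radial glial form thus fell further than either of the others, by these probe sets. The ratio of Fabp5 probe set 1 to Fabp3 was 1.27 ± 0.19 at 8 weeks and 1.60 ± 0.12 at 1 week (SD, n = 4 and 6), a difference of -0.33 (exact permutation p = 0.019, adjusted p = 0.019). Here the ages overlapped, from 1.03 to 1.505 at 8 weeks and from 1.45 to 1.73 at 1 week. The difference was larger on the deposited scale (-0.39), with median scaling (-0.41), with trimmed mean scaling (-0.41), with spike-in scaling (-0.40) and with a pseudocount 4 times as high (-0.37), each at an adjusted exact permutation p of 0.00476. It was smaller with a pseudocount of 1 (-0.32, adjusted exact permutation p = 0.019). With 1 array left out it ran from -0.42 to -0.26. By Fabp5 probe set 2 the difference from Fabp3 was -0.89 and that of Fabp7 from Fabp5 -1.15, both with exact permutation p = 0.00476. The order of the falls, Fabp7 then Fabp5 then Fabp3, was the same with either Fabp5 probe set. The step between Fabp5 and Fabp3 depended on the probe set used.

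The Fabp5 probe sets themselves changed unequally. The signal of probe set 2 was 42.9% and 49.8% of that of probe set 1 in the 8-week arrays labelled female and 47.7% and 45.9% in those labelled male, against 63.4% to 74.3% in the 6 arrays at 1 week, so the ages did not overlap. The log2 ratio was -1.11 ± 0.09 at 8 weeks and -0.55 ± 0.10 at 1 week (SD, n = 4 and 6), a difference of -0.56 (two-sided exact permutation p = 0.00476, the smallest possible). This comparison was chosen after the values were seen. The fall of Fabp5 is therefore given as a range over its probe sets, 2.31-fold to 3.47-fold, against 7.85-fold for Fabp7 and 1.85-fold for Fabp3 (ratios of mean intensity, 1 week over 8 weeks).

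**Figure D3:**
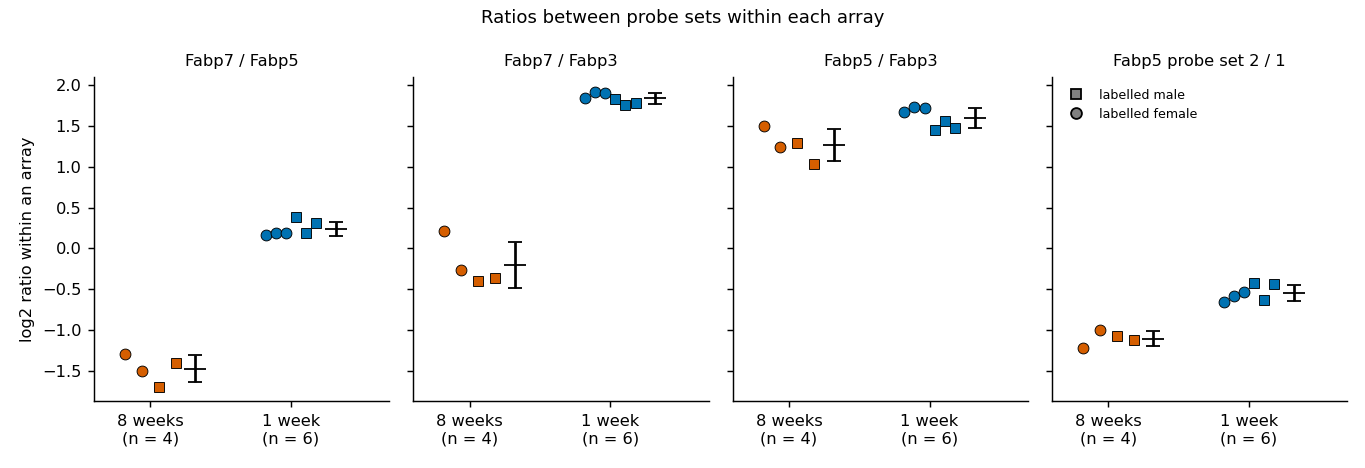
log2 ratio between probe sets within each array (vertical axis) for Fabp7 over Fabp5, Fabp7 over Fabp3, Fabp5 over Fabp3 (Fabp5 by probe set 1) and Fabp5 probe set 2 over 1, at 8 weeks (orange) and 1 week (blue), with the mean and SD beside each age, squares for labelled male and circles for labelled female. The ages are apart in every panel but Fabp5 over Fabp3, where 8-week points reach 1.505 and 1-week points start at 1.45.

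Within each sex label the members gave like values. In the arrays labelled female the log2 changes were -2.90 ± 0.13 for Fabp7, -1.32 ± 0.13 and -1.84 ± 0.15 for Fabp5 probe sets 1 and 2 and -0.98 ± 0.11 for Fabp3, all called lower, as were 16.2% of probe sets. In the arrays labelled male they were -2.92 ± 0.13, -1.08 ± 0.13, -1.67 ± 0.15 and -0.75 ± 0.11 in the same order, again all called, against 16.6% of probe sets. On the deposited scale the calls in arrays labelled male were lost for Fabp5 probe set 1 (-0.46, limma adjusted p = 0.0623) and Fabp3 (-0.08, limma adjusted p = 0.711). The male minus female difference over both ages ran from -0.07 to 0.16 over the 4 probe sets, and the interaction of age and label from -0.02 to 0.24. limma called 0 of 4 member probe sets in either comparison, and 0 of 4 reached an unadjusted p under 0.05. Over all probe sets 0% were called in the label comparison and 0% in the interaction, with 469 and 759 at an unadjusted p under 0.05. Sex transcripts opposed the label in 4 of the 6 arrays at 1 week, so neither comparison can decide on a difference between the sexes. At 8 weeks alone, Fabp3 averaged 571 ± 35.6 in arrays labelled male and 469 ± 44.8 in those labelled female (SD, n = 2 each), a log2 difference of 0.27 ± 0.12 (limma, unadjusted p = 0.0428, adjusted p = 1).

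Without the 4 arrays whose sex transcripts opposed their label, and with age alone in the model, the falls were -2.96 for Fabp7, -1.20 and -1.83 for Fabp5 and -0.90 for Fabp3, all still called. With the array that carried both transcripts also left out, a single 1-week array remained, whose spread was taken to be that of the 8-week arrays, and the values were -2.94, -1.09, -1.78 and -0.94.

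**Figure D4:**
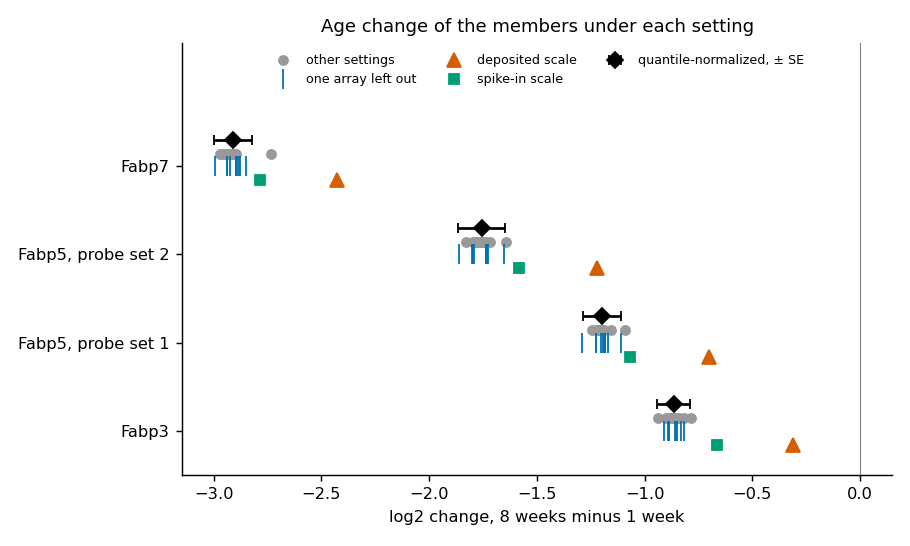
log2 change from 1 to 8 weeks (horizontal axis) of the 4 member probe sets under every setting, with black diamonds for the quantile-normalized value and its SE, blue ticks for fits that leave out 1 array, orange triangles for the deposited scale, green squares for scaling to spike-in controls and grey points for the other settings. All points are below 0. Fabp3 on the deposited scale, at -0.31, lies nearest to it.

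The relatives of the members in the intracellular lipid binding protein family gave little signal in brain. Of 12 other family genes listed, 9 were annotated on the array, and 0 had their brightest probe set past the filter on dim probe sets. Mean intensities of their 14 probe sets ran from 0.625 to 63 at 8 weeks and from 1.04 to 54.2 at 1 week, where the dimmest probe set tested averaged about 73.9. Crabp1, which binds retinoic acid, read 2.42 to 11.5 at 8 weeks and 35.9 to 59.4 at 1 week. With no filter it was called lower (log2 change -1.28 ± 0.09 on the pseudocount scale, limma adjusted p = 1.57e-05). In that setting 3451 of all 22626 probe sets were called lower and 3318 higher. Fabp4, the fat cell and macrophage form, was called by 1 of its 4 probe sets in that setting, at 8.54 to 22.8 at 8 weeks and 16.8 to 72.2 at 1 week (-0.70 ± 0.19, limma adjusted p = 0.0199). No other probe set of these relatives was called there.

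Radial glia and neural progenitor genes, the cell class that Fabp7 marks, were lower at 8 weeks in 9 of 16 tested members and higher in 1, with a median log2 change of -0.44 against -0.02 over all genes. The background for this list and for those below is the share of all genes, 24.0% called lower and 21.9% higher. Tnc, a matrix glycoprotein of radial glia, was 54.9 ± 9.91 at 8 weeks and 282 ± 49.6 at 1 week (SD, n = 4 and 6). Its log2 change was -1.95 ± 0.12 (limma adjusted p = 1.78e-06). Tnc was dim at 8 weeks and passed the filter through its 1-week arrays, and over 24 alternatives its change ran from -2.335 to -1.315. Ptprz1, a receptor phosphatase of glia and their precursors, changed by -0.71 ± 0.12 and Prom1, a membrane protein of stem cells, by 0.72 ± 0.15. Further Ptprz1 probe sets fell more and were called (-1.26 and -0.96). Vim, an intermediate filament of radial glia, changed by -0.78 ± 0.25 (limma adjusted p = 0.0267). That call was lost under 8 of 25 alternatives, among them leaving out replicate 1 labelled male at 8 weeks (adjusted p = 0.104). Further Vim probe sets were also called (-0.66 and -0.63). Hes5, a target of Notch signalling, changed by -0.73 ± 0.20 (limma adjusted p = 0.0147), and its call was lost without replicate 2 labelled female (adjusted p = 0.0624) or replicate 2 labelled male at 8 weeks (adjusted p = 0.0689). Singled out after their values were seen, Nes, the intermediate filament of neural stem cells, read 231 ± 38.0 at 8 weeks and 231 ± 40.4 at 1 week, and Slc1a3, a glial glutamate transporter, 766 ± 164 at 8 weeks and 781 ± 77.5 at 1 week, and neither passed (limma adjusted p = 0.976 and 0.791). The change of Fabp7, -2.91, was larger than that of each of the 16 tested genes of this list, Tnc coming nearest. On the deposited scale the split of the list was 6 higher to 1 lower, and the brightest Ptprz1 probe set lost its call (-0.16, limma adjusted p = 0.378). On that scale 8673 of 13576 probe sets were called higher and 629 lower, the background for every list count on it. Without replicate 3 labelled female at 1 week 2 members were higher.

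Transcription factors and Notch pathway genes known or proposed to act on Fabp7 were lower in 5 of 13 tested members and higher in 1, with a median change of -0.10. Nfib, a nuclear factor I gene of glial differentiation, changed by -0.72 ± 0.15 and the receptor gene Notch1 by -0.42 ± 0.11, while the nuclear factor I gene Nfic changed by 1.02 ± 0.18. Without the 4 arrays of opposed label the calls of Nfib (-0.61, limma adjusted p = 0.0569) and Notch1 (-0.39, limma adjusted p = 0.137) were lost. Of 3 other Nfib probe sets 1 was called (-0.54) and 2 were not (-0.13 and -0.51), and the other Notch1 probe set was not (-0.16). Notch3, a further receptor gene of the pathway, changed by -0.39 ± 0.12 (limma adjusted p = 0.019). That call was lost under 7 of 25 alternatives. Among them were leaving out replicate 2 labelled female (adjusted p = 0.0851) or replicate 2 labelled male at 8 weeks (adjusted p = 0.0543). On the deposited scale the value turned to 0.12. Another Notch3 probe set fell further and was called (-0.92 ± 0.10, limma adjusted p = 3.88e-05). Pax6, singled out after its value was seen, read 192 ± 72.4 at 8 weeks and 149 ± 64.2 at 1 week (limma adjusted p = 0.4, not passing). The count of members lower was 3 without replicate 2 labelled female at 8 weeks, 2 without replicate 2 labelled male at 8 weeks and 1 without the 4 arrays of opposed label. It was 0 on the deposited scale, where Notch1 turned to 0.07 and 6 members were higher, as were most probe sets. The higher count was 2 without replicate 1 labelled female at 1 week.

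Fatty acid uptake and activation genes went both ways, with 5 of 12 tested members lower and 4 higher (median -0.03). Lpl, the lipase that frees fatty acids from lipoproteins, was 207 ± 26.8 at 8 weeks and 729 ± 213 at 1 week (-1.65 ± 0.22, limma adjusted p = 2.16e-04). Slc27a4, a fatty acid transport protein gene, changed by -0.66 ± 0.11 and Dbi, which binds acyl-CoA, by -0.36 ± 0.08, though on the deposited scale Dbi turned to 0.15 and Slc27a4 lost its call (-0.11). Of 3 other Dbi probe sets 1 was called (-0.37) and 2 were not (0.05 and -0.07). Acot1, an acyl-CoA thioesterase gene, was 65.9 ± 12.3 at 8 weeks and 154 ± 33.9 at 1 week (-0.98 ± 0.14, limma adjusted p = 2.81e-04), and with a pseudocount 4 times as high its change was -0.62. The acyl-CoA synthetase genes Acsbg1 and Acsl6 rose, by 1.15 ± 0.12 and 0.99 ± 0.11. Lower counts were 3 without the 4 arrays of opposed label, where Dbi lost its call (-0.35, limma adjusted p = 0.0526), and 2 on the deposited scale.

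Fatty acid synthesis, elongation and desaturation genes were lower in 8 of 17 tested members and higher in 3 (median -0.12). Fads2, the desaturase at the entry to long polyunsaturated fatty acids, was 446 ± 48.6 at 8 weeks and 978 ± 89.4 at 1 week (-1.09 ± 0.09, limma adjusted p = 1.14e-05). Fads3, a gene of the same desaturase family, was dim at 8 weeks, at 37.8 ± 29.4, against 215 ± 31.1 at 1 week. Its change of -2.04 ± 0.16 therefore depended on the pseudocount, and ran from -2.73 with a pseudocount of 1 to -1.23 with one 4 times as high. Elovl2, an elongase of polyunsaturated fatty acids, changed by -0.97 ± 0.11, and by -0.64 with the higher pseudocount. Fasn, the fatty acid synthase gene, changed by -0.84 ± 0.08 and lost its call on the deposited scale (-0.28, adjusted p = 0.0657), while Scd1, a desaturase that makes monounsaturated fatty acids, rose by 0.72 ± 0.07. Elovl1, an elongase of saturated chains, changed by 0.50 ± 0.13, a call lost without the 4 arrays of opposed label (0.47, limma adjusted p = 0.0788). On the deposited scale, where most probe sets were called higher, 3 members were lower and 9 higher. Without the 4 arrays of opposed label 1 was higher.

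Fatty acid oxidation genes of mitochondria mostly did not pass, with 2 of 17 tested members higher, 0 lower and 15 not passing (median 0.05, limma). The 2 were Hadhb, a subunit of the trifunctional protein (834 ± 39.6 at 8 weeks, 491 ± 29.4 at 1 week, log2 change 0.74 ± 0.07), and Acadvl, the dehydrogenase of very long chains (0.35 ± 0.08). Without the 4 arrays of opposed label 1 member was higher, Acadvl losing its call (0.32, limma adjusted p = 0.0809). On the deposited scale, where most probe sets were called higher, 14 members were. Lower counts became 1 without replicate 1 labelled female at 1 week, without replicate 3 labelled male at 1 week or without replicate 1 labelled male at 8 weeks. The nuclear receptor genes that fatty acids and retinoids act through were listed with a coactivator gene, Ppargc1a. Of this list 5 of 11 annotated were tested, with 1 higher, 0 lower and a median of 0.30. The one higher was Ppargc1a (0.55 ± 0.11), and none of the tested receptor genes was called. A further probe set of Ppargc1a was also called (0.62 ± 0.08) and 3 others were not (0.05 to 0.26). Without replicate 1 labelled female at 1 week 2 members were higher, and on the deposited scale 4 were. Ppara, Ppard and Pparg, the fatty acid receptors themselves, were left out by the filter.

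**Figure D5:**
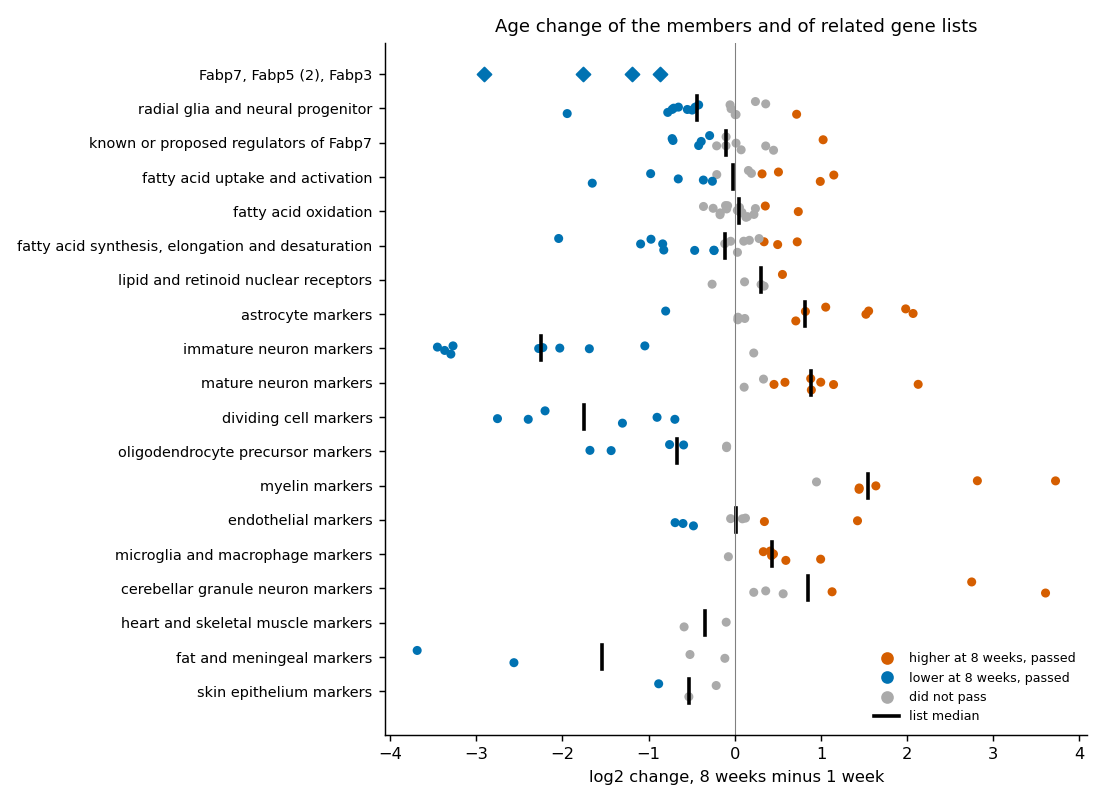
log2 change from 1 to 8 weeks (horizontal axis) of the member probe sets (diamonds, top line) and of each tested gene of the lists (points), orange where higher and blue where lower at an adjusted p under 0.05, grey where the gene did not pass, with a black bar at each list's median. The members lie left of 0. Medians of immature neuron (-2.25), dividing cell (-1.75), fat and meningeal (-1.54) and oligodendrocyte precursor markers (-0.68) also lie there. So do those of skin epithelium (-0.53), radial glia (-0.44) and heart and skeletal muscle genes (-0.34). Fatty acid synthesis (-0.12), Fabp7 regulator (-0.10) and fatty acid uptake genes (-0.03) have medians just left of 0. Astrocyte (0.82), mature neuron (0.88) and myelin markers (1.54) are among the lists with medians to the right.

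Markers of several cell types moved with the members, and their part in the members' falls was not tested. Immature neuron markers were lower in 9 of 10 tested members and dividing cell markers in 6 of 6. The summed intensity of the immature neuron list was 5535 to 6780 at 8 weeks and 20845 to 24279 at 1 week, and that of the dividing cell list 933 to 1028 at 8 weeks and 2366 to 3248 at 1 week. Without the 4 arrays of opposed label the dividing cell count was 3, and it was 2 with a filter at the 60th percentile. Both settings leave fewer genes of this list tested. Cdk1, Mcm6 and Top2a were each called in all 22 alternatives that tested them. They were dim at 8 weeks (means 22.57, 17.52 and 29.95) and passed the filter through their 1-week arrays. Their calls are therefore no separate support for the count. Astrocyte markers, for the cells in which Fabp7 is known to persist, were higher in 7 of 11 tested members and lower in 1 (Aldh1l1, -0.80 ± 0.13), with sums of 17417 to 19013 at 8 weeks and 7967 to 11503 at 1 week. Mature neuron markers were higher in 7 of 9 and lower in 0, with sums of 16233 to 17908 at 8 weeks and 9477 to 12283 at 1 week.

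Endothelial markers went both ways, 3 of 8 lower and 2 higher, with sums of 1566 to 1728 at 8 weeks and 1491 to 1824 at 1 week. Oligodendrocyte precursor markers were lower in 4 of 6 tested members and higher in 0, myelin markers higher in 5 of 6 and microglia and macrophage markers in 6 of 7 (2 without the 4 arrays of opposed label). Cerebellar granule neuron markers were higher in 3 of 6, with sums of 2468 to 9860 at 8 weeks and 1390 to 4734 at 1 week, so these arrays differed widely within an age. On the deposited scale endothelial markers were 5 higher and 0 lower, precursor markers 2 and 2, cerebellar markers 5 higher and astrocyte markers 0 lower. Most of all probe sets were called higher on that scale. Heart and skeletal muscle markers, tissue in which Fabp3 is abundant, had 6 of 8 under the filter and 0 of 2 called, with sums of 284 to 365 at 8 weeks and 241 to 636 at 1 week. Skin epithelium markers, tissue in which Fabp5 is abundant, had 5 of 8 under the filter and 1 of 3 lower, with sums of 407 to 515 at 8 weeks and 582 to 907 at 1 week. Fat and meningeal markers were lower in 2 of 4 tested members, with sums of 459 to 619 at 8 weeks and 1000.8 to 5344 at 1 week. The 2 were the collagen genes Col1a1 and Col3a1, at 42.1 and 63.7 at 8 weeks, which passed the filter through their 1-week arrays. In each of these lists 0 annotated markers were at 0 in all arrays.

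The genes whose profile over the 10 arrays was most like that of each member were named by the highest Pearson correlation of log2 values. The arrays fall into the 2 ages, so these values mostly restate the fall with age, and they are given as a description. For Fabp7 they were Evl, an actin regulator (r = 0.997, n = 10 arrays), Tm7sf2, a sterol reductase (r = 0.996), Ybx1, an RNA-binding protein (r = 0.996), Tmsb10, which binds actin (r = 0.996), and Uck2, a uridine kinase (r = 0.995). By their brightest probe sets Ybx1 fell most of these, by 2.02 on the log2 scale, though further Tmsb10 probe sets changed by -2.31 and -2.25. For Fabp5 probe set 1 they were Cd200 (r = 0.994, n = 10 arrays), Rrm2, the ribonucleotide reductase subunit of dividing cells (r = 0.994), Nipsnap3b (r = 0.993), Rbmxl1 (r = 0.993) and Col4a2, a basement membrane collagen chain (r = 0.992). For Fabp3 they were Asnsd1, Elob, Txndc17, Gnai3 and Styx, with r from 0.983 to 0.988 (n = 10 arrays) and changes from -0.34 for Elob, which turned to 0.20 on the deposited scale, to -1.05 for Gnai3, a G protein subunit. Among the 6 arrays at 1 week alone, r was 0.111 to 0.731 for the Fabp7 genes, 0.656 to 0.883 for the Fabp5 genes and -0.0155 to 0.683 for the Fabp3 genes. Between the members r over the 10 arrays was 0.984 for Fabp7 and Fabp5, 0.962 for Fabp7 and Fabp3 and 0.963 for Fabp5 and Fabp3, and within 1 week 0.69, 0.811 and 0.208 in that order (n = 6 arrays).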

How the data were processed

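Brain RNA was measured on 10 arrays. The authors deposited 1 linear intensity for each probe set, as judged from the values, and the software that summarised the probes was not given in the sources used here. Of 22690 probe sets, 64 array controls were left out and 22626 quantile-normalized. After adding a pseudocount of 24 (the 20th percentile of deposited values) and taking log2, probe sets with a mean under the 40th percentile were left out, leaving 13576, and 8148 genes by the brightest probe set with 1 symbol. The dimmest probe set tested averaged about 73.9, and a gene dimmer than that at 1 age passed the filter through its other age. A symbol was annotated for 20380 probe sets, several for 691 and none for 1555. Models were fitted with limma 3.58.1 in R 4.3.3 (lmFit, eBayes), with all arrays in the fit and 1 coefficient for each combination of age and sex label. P-values were two-sided and Benjamini-Hochberg adjusted, with a threshold of 0.05. Ratios within arrays were compared by exact permutation of arrays between ages. Alternatives were the pseudocount, scaling, filter, variance model, replicate block, age alone and each array left out. Spike-in scaling, the lists without the 4 arrays of opposed label and the Fabp5 probe sets against each other were added after seeing the data. The pipeline was tested on simulated data. The number of arrays limits precision. Members and lists were chosen with earlier results of these data known. Besides the members, genes were named by rule: from each list the called genes of largest change, at most 4 in the direction most of its calls took and at most 2 in the opposite one, and the 5 of highest correlation with each member. Of marker genes so named only a few are printed.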

Additional observations from a re-analysis of the deposited data

Results flagged for a closer look

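Within an age, a highest or lowest array far from its neighbour was looked for in 142 sets of 4 or 6 arrays, and chance sets apart about 1 in 20 such sets. It was found in 9, and 0 of them concerned Fabp7, Fabp5, Fabp3 or their ratios. At 8 weeks Nfic read 689 in replicate 2 labelled male, the others 430 to 449, and Cdk1, a kinase of dividing cells, 50.1 in replicate 1 labelled female, the others 13.2 to 13.5. Low arrays at 8 weeks were replicate 1 labelled female for Hadhb (775, the others 847 to 859), replicate 1 labelled male for Snap25, a synaptic protein (3752, the others 4261 to 4358), and replicate 2 labelled male for Mal, a myelin protein (1415, the others 1664 to 1706). At 1 week the highest array stood apart for Notch1 (303 in replicate 2 labelled male, the others 240.0 to 258) and for Eno2, a neuronal enolase (1211 in replicate 2 labelled female, the others 1065 to 1115). Replicate 3 labelled female at 1 week, the array that carried both sex transcripts, was highest for the collagen genes Col1a1 (3613, the others 266 to 1453) and Col3a1 (1044, the others 328 to 488).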

How the results depend on the processing

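Over 25 alternatives the log2 changes ran from -3.00 to -2.43 for Fabp7, from -1.29 to -0.70 and from -1.86 to -1.22 for Fabp5 probe sets 1 and 2, all called, and from -0.94 to -0.31 for Fabp3, called in 24. In 1 of these alternatives a single 1-week array remained, and the spread came from the 8-week arrays alone. On the deposited scale Fabp3 was -0.31 (limma adjusted p = 0.0517), in arrays labelled male Fabp5 probe set 1 was -0.46 (0.0623) and Fabp3 -0.0846 (0.711), and 8673 probe sets were higher and 629 lower, against 2993 and 3253. There Notch1 (0.0675), Notch3 (0.12), Dbi (0.15) and Elob (0.20) changed sign. With spike-in scaling 1236 were lower (3058 higher, median change 0.14), and Fabp3 in arrays labelled male was -0.56 (0.103). Without the 4 arrays of opposed label 1973 were lower, and without the array carrying both transcripts too, 1975 higher and 1747 lower by that fit. Without the 4 the ratio differences were -1.76 (exact permutation, adjusted p = 0.1) for Fabp7 to Fabp5, -2.06 (0.1) for Fabp7 to Fabp3 and -0.30 (0.267) for Fabp5 to Fabp3, a design too small to pass. The cause of the other changes was not tested. With 1 array left out, Fabp7 ran from -3.00 to -2.85, Fabp5 from -1.29 to -1.11 and from -1.86 to -1.65, Fabp3 from -0.91 to -0.82, and counts from 2480 to 2936 higher and from 2729 to 3126 lower. Whether replicate numbers pair the arrays was not settled. Of 13 same-number correlations of deviations from group means, 5 were over 0.1. Their median was 0.098, against -0.0597 for other-number pairs, and 8 of 10 arrays correlated best with their own number. With the replicate block Fabp7 was -2.89, Fabp5 -1.19 and -1.72, Fabp3 -0.85, and 2847 were higher and 3054 lower. Of 79 other named genes 51 kept their call under every alternative run.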

Other observations

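Fabp1, the liver form of the family, was dim and uneven within both ages: its brighter probe set read 7.81 to 198 at 8 weeks and 12.1 to 124 at 1 week, and its other probe set 1.07 to 73.8 at 8 weeks and 0.79 to 36.1 at 1 week. It was singled out after its values were seen, and it did not pass without the filter (log2 change -0.11 ± 0.56, limma adjusted p = 0.911).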
